A study of Mus musculus with 6 samples.

Results

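The genes described here are 10 fast-responding genes of growth factor and stress signalling, measured in mouse hematopoietic stem cells (HSCs) taken from bone marrow. They are the dual-specificity phosphatase genes Dusp1, Dusp2, Dusp4, Dusp5, Dusp6 and Dusp10, the immediate early response genes Ier2, Ier3 and Ier5, and the Sprouty gene Spry2. They were chosen by name, and every non-control probe whose transcript maps to one of them was taken, which gave 11 of 55681 probes and 10 of 36799 genes on the array. Ier5 had 2 probes and each of the other genes had 1. Of the 10 genes, 9 had a probe bright enough to be tested, and Dusp10 did not.

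The study set Cdk6-/- HSCs against wild-type HSCs in 2 states. One was after exposure to polyI:C, an artificial double-stranded RNA and interferon inducer, and the other was untreated. On each of the 6 arrays a Cdk6-/- sample was labelled with Cy5 and, with Cy3, a pool of sorted wild-type HSCs given the same treatment. There were 3 arrays per treatment, described as biological replicates. Each of the 2 pools was hybridised 3 times and stands for 1 control sample, so that its spread is technical. The standard errors, intervals and p-values of the ratios, and of their differences, therefore leave out the biological spread of wild-type cells. The dyes were never swapped. A probe's bias towards 1 dye is therefore part of every ratio, and cancels only where treated ratios are set against untreated ones. The kind of deleted allele, the strain, age and sex of the mice, the number of mice per sample or pool, the sorting gate and the dose and timing of polyI:C are not given in the sources used here.

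Signals that reach the cell through Ras and the MAP kinases ERK, JNK and p38 switch on these genes within minutes. The products of the phosphatase and Sprouty genes then turn the same pathways down. Dual-specificity phosphatases remove phosphate from both the threonine and the tyrosine that keep a MAP kinase active. Dusp1, Dusp2, Dusp4 and Dusp5 act mainly in the nucleus, Dusp6 acts on ERK in the cytoplasm, and Dusp10 prefers JNK and p38. Sprouty proteins act further upstream, between growth factor receptors and ERK. The Ier proteins are small products of immediate early genes, of which Ier3 affects cell survival and ERK signalling. In blood stem cells such pathways are active in the response to cytokines.

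The share of spots well above background was 47.0 to 76.5% in Cy5 and 54.4 to 75.6% in Cy3, and no spot was saturated. PolyI:C array 3 was the brightest and was alone on its slide, and its ratios had an r across genes of 0.13 and 0.22 with the other polyI:C arrays, whose own r was 0.56. The X-linked RNA gene Xist had a log2 ratio of -3.42 on polyI:C array 3 and of -3.98 on untreated array 3, while the other 4 arrays had 0.42 to 1.87. The probe for Cdk6 gave log2 ratios of -0.26, -0.44 and -1.28 on the polyI:C arrays and 0.40, -0.41 and 0.24 on the untreated arrays, where it was not well above background, and where it lies relative to the deletion is not known. All 13 markers of HSCs and progenitors, among them Kit, Ly6a, Slamf1 and Procr, were well above background in Cy5 on all 6 arrays. So were all 9 granulocyte markers and all 6 megakaryocyte markers. The summed Cy5 signal of the HSC and progenitor markers was 33740 to 57686 after polyI:C and 54337 to 85244 untreated. Their median log2 difference of polyI:C minus untreated in Cdk6-/- samples was -0.61, and 0 of them passed the test.

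Dusp5, the nuclear phosphatase that acts on ERK, was the member that was higher in Cdk6-/- cells in both states. Its log2 ratios of Cdk6-/- sample to wild-type pool were 1.08, 1.28 and 1.66 on polyI:C arrays 1, 2 and 3, and 1.63, 1.10 and 0.65 on untreated arrays 1, 2 and 3. All 6 lay above 0, and those of the 2 states overlapped. After polyI:C the mean was 1.34 (SE 0.21, SD 0.29, n = 3), a 2.53-fold difference, with a limma adjusted p = 0.0244. In untreated cells it was 1.13 (SE 0.21, SD 0.49, n = 3), or 2.19-fold, with a limma adjusted p = 0.00902. The untreated call ended without untreated array 1 (0.88, limma adjusted p = 0.0618), and the call after polyI:C ended without polyI:C array 1 (1.47, limma adjusted p = 0.139), 2 (1.37, limma adjusted p = 0.148) or 3 (1.18, limma adjusted p = 0.0899). The call after polyI:C also ended with slide as a fixed block (limma adjusted p = 0.0546), processed signals (0.0683), no filter on dim probes (0.0516) and an intensity trend of the prior (0.145), and the untreated call with that trend (0.0547). Without both arrays low in Xist, which were array 3 of each state, Dusp5 was at 1.18 after polyI:C (limma adjusted p = 0.104) and 1.37 untreated (limma adjusted p = 0.0286). In these bulk samples, fewer cells of a type and less RNA per cell cannot be told apart.

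The window around the annotated start of Dusp5 is shown because Dusp5 is the gene called in both states, and that of Dusp1 for comparison with it. Each runs from 250 bases before the start to 50 after it, 5′ to 3′ on the strand of the gene, from RefSeq on GRCm38.p6, at chr19:53528895-53529194 (plus strand) and chr17:26508423-26508722 (minus strand). Capitals mark the SRF CArG box, the site bound by serum response factor, and the letters TGACG, or their reverse complement CGTCA, which form the core of the cAMP response element (CRE), and TGACGTCA, the full CRE.
Dusp5: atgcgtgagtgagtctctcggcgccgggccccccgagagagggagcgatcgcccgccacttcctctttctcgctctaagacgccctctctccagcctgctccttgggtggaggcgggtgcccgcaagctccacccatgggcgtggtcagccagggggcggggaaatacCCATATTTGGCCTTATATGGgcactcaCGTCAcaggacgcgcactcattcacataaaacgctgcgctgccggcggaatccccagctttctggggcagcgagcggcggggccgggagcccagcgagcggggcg
Dusp1: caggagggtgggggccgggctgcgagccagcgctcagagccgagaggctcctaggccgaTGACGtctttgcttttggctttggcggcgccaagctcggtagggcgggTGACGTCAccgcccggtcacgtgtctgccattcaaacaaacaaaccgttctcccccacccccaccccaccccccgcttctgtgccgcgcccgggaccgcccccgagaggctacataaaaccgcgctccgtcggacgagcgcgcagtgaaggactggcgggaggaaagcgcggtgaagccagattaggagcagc
Dusp5 held 2 adjoining CArG boxes, whose first bases lay at -82 and -72 from the start, and 1 CRE core with its first base at -55. Dusp1 held the full CRE, TGACGTCA, from -143 to -136, and a further core at -191. Of 32851 promoter windows of this length, 1.63% held a CArG box, 1.79% the full CRE and 20.8% the core, read on both strands, with each full CRE also counted as a core. Of the 8 members with a window in the table, 1 held a CArG box, 1 the full CRE, 3 the core, 1 the EGR motif GCGNGGGCG (Dusp2, with its first base at -98; 5.55% of all windows) and 1 the Ets motif CCGGAA (Spry2; 14.9%). None held TGANTCA of AP-1 (7.81% of all windows) or TATAAA (13.6%). Windows for Dusp4 and Ier2 were not used here.

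Ier3, whose product affects survival of stressed cells, was higher in untreated Cdk6-/- cells. Its log2 ratios were 0.44, 0.45 and 0.69 after polyI:C and 1.15, 1.30 and 0.40 untreated. Every array lay above 0, and the untreated array that was lowest, array 3, lay below all 3 polyI:C arrays. The untreated mean was 0.95 (SE 0.20, SD 0.48, n = 3), or 1.93-fold, with a limma adjusted p = 0.0149. The mean after polyI:C was 0.53 (SE 0.20, SD 0.14, n = 3), with a limma adjusted p = 0.294. The untreated call ended without untreated array 1 (0.85, limma adjusted p = 0.085) or array 2 (0.77, limma adjusted p = 0.0849), and without both arrays low in Xist the mean was 1.23 (limma adjusted p = 0.0244). On GRCm38.p6 Ier3 lies at chr17:35821713-35822911 and Dusp5 at chr19:53529145-53541809.

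**Figure D1:**
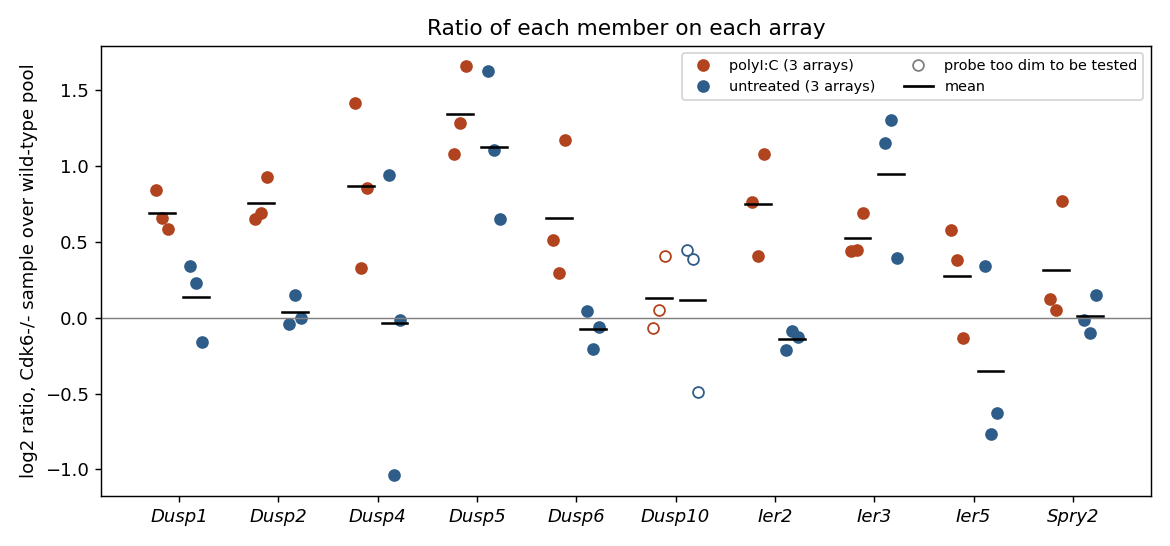
Log2 ratio of the Cdk6-/- sample to the wild-type pool (vertical axis) for each of the 10 genes, with polyI:C arrays on the left and untreated arrays on the right of each gene. Points are single arrays, bars are means, and open points mark Dusp10, which was too dim to be tested. Dusp5 and Ier3 lie above 0 on all 6 arrays, while all 3 polyI:C points lie above all 3 untreated points for Dusp1, Dusp2, Dusp6 and Ier2.

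Dusp1, Dusp2, Dusp6 and Ier2 had bright probes and were set apart from Dusp5 and Ier3 by untreated ratios near 0. Dusp1, which acts on p38, JNK and ERK, had log2 ratios of 0.84, 0.66 and 0.58 after polyI:C and 0.34, 0.23 and -0.16 untreated. Dusp2, a phosphatase of blood cells, had 0.65, 0.69 and 0.93 after polyI:C and -0.04, 0.15 and -0.0030 untreated. All 3 polyI:C arrays lay above all 3 untreated arrays for both genes. Dusp6, the cytoplasmic ERK phosphatase, had 0.51, 0.29 and 1.17 after polyI:C and 0.05, -0.20 and -0.06 untreated. Ier2, an immediate early nuclear protein, had 0.76, 0.40 and 1.08 after polyI:C and -0.21, -0.09 and -0.13 untreated. For these genes too the states did not overlap, and the highest ratio of both was that of polyI:C array 3.

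The means after polyI:C did not pass the threshold of 0.05 for any of these 4 genes. They were 0.76 for Dusp2 (SE 0.16, 95% interval 0.39 to 1.12, limma adjusted p = 0.0689), 0.75 for Ier2 (SE 0.18, interval 0.35 to 1.15, limma adjusted p = 0.0978), 0.69 for Dusp1 (SE 0.17, interval 0.31 to 1.08, limma adjusted p = 0.111) and 0.66 for Dusp6 (SE 0.20, interval 0.22 to 1.10, limma adjusted p = 0.176). Each interval, which is not adjusted for the number of genes, lay above 0. The untreated means were 0.04 for Dusp2, -0.14 for Ier2, 0.14 for Dusp1 and -0.07 for Dusp6, with 95% intervals that all spanned 0 and lay within -0.54 and 0.52.

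Dusp4, Ier5 and Spry2 did not pass the test in either state. Dusp4, a nuclear phosphatase of ERK and JNK, had log2 ratios of 1.42, 0.33 and 0.85 after polyI:C and 0.94, -1.04 and -0.02 untreated. Its untreated SD, 0.99, was the largest of the 9 tested genes in either state, and the probe was not well above background in Cy3 on polyI:C arrays 1 and 2 or in Cy5 on polyI:C array 2. Ier5, which promotes activity of the heat shock factor HSF1, had 0.58, 0.38 and -0.13 after polyI:C and 0.34, -0.77 and -0.63 untreated by its brighter probe.

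The mean of Dusp4 was 0.87 after polyI:C (95% interval 0.13 to 1.60, limma adjusted p = 0.287) and -0.04 untreated (interval -0.77 to 0.70, limma adjusted p = 0.955). That of Ier5 was 0.28 after polyI:C (interval -0.26 to 0.81) and -0.35 untreated (interval -0.89 to 0.18). The other Ier5 probe was well above background on 2 of 6 arrays in each channel and was not tested. Its ratios were 0.11, 0.47 and 0.09 after polyI:C and -0.55, 0.12 and -0.25 untreated. The 2 probes had opposite signs on polyI:C array 3 and on untreated arrays 1 and 2. Spry2, the inhibitor upstream of ERK, had 0.13, 0.05 and 0.77 after polyI:C and -0.01, -0.10 and 0.15 untreated. Its highest ratio was that of polyI:C array 3. Dusp10 was well above background on 2 arrays in Cy5 and on 0 in Cy3, and no fold is given for it.

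Of the 9 tested members, 2 were called higher in untreated Cdk6-/- cells and 0 lower, beside 3.05% of 22630 genes called higher and 9.93% called lower. After polyI:C 1 was called higher and 0 lower, beside 0.318% of all genes called higher. At an unadjusted p under 0.05 in limma, 7 members were higher after polyI:C, beside 6.41% of all genes. The ratio lay above 0 on all 3 polyI:C arrays for 8 members (16.5% of all genes) and on all 3 untreated arrays for 2 members (20.9%). The median ratio of the members was 0.69 after polyI:C and 0.01 untreated, against -0.02 and -0.05 over all genes. By array, the mean ratio of the 9 members was 0.71, 0.50 and 0.84 on the polyI:C arrays and 0.46, 0.07 and 0.02 on the untreated arrays.

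Whether the ratio itself differed between the states was tested in the same fit, where a constant dye bias cancels. No member passed (0 of 9, beside 1.60% of all genes that were up after polyI:C), and at an unadjusted p under 0.05 in limma 4 were up, beside 11.2%. Ier2 differed by 0.89 (SE 0.26, 95% interval 0.32 to 1.46, limma adjusted p = 0.109), Dusp6 by 0.73 (interval 0.11 to 1.36, limma adjusted p = 0.219), Dusp2 by 0.72 (interval 0.20 to 1.23, limma adjusted p = 0.151) and Dusp1 by 0.56 (interval 0.01 to 1.11, limma adjusted p = 0.294). Without both arrays low in Xist, the differences were 0.73 for Ier2, 0.48 for Dusp6, 0.61 for Dusp2 and 0.46 for Dusp1. Dusp5 differed by 0.21 (interval -0.46 to 0.89) and Ier3 by -0.42 (interval -1.06 to 0.22). The polyI:C ratios lay above all untreated ratios for 4 of 9 members, beside 14.3% of all genes, and with median centring for 3 of 9, beside 8.99%.

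Within slides 1 and 2, which held both states, the ratio of Ier2 differed by 0.93 and 0.49, that of Dusp2 by 0.67 and 0.53, that of Dusp6 by 0.52 and 0.50 and that of Dusp1 by 0.75 and 0.43. A difference above 0 on both slides follows for these 4 genes from ratios that did not overlap, and adds nothing to that. It was also above 0 on both slides for Dusp4 (0.95 and 1.37), Ier5 (0.72 and 1.15) and Spry2 (0.06 and 0.15). Dusp5 differed by -0.06 and 0.18, and Ier3 by -0.33 and -0.85.

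The normalized signals give both sides of the ratio. In Cdk6-/- samples the log2 Cy5 signal of Dusp2 was 12.78, 13.14 and 13.15 after polyI:C and 13.27, 13.58 and 13.22 untreated. In the pools its Cy3 signal was 12.13, 12.45 and 12.22 after polyI:C and 13.31, 13.42 and 13.23 untreated. The treated pool thus lay below the untreated pool without overlap, and the treated Cdk6-/- samples below the untreated ones by a smaller distance. Dusp1 averaged 12.92 after polyI:C and 13.26 untreated in Cdk6-/- samples, and 12.23 after polyI:C and 13.13 untreated in the pools.

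Ier2 averaged 11.13 after polyI:C and 11.41 untreated in Cdk6-/- samples, and 10.38 after polyI:C and 11.55 untreated in the pools. Dusp5 had the widest gap between genotypes in both states. Its Cy5 signal was 9.09, 9.40 and 10.10 after polyI:C and 11.51, 10.67 and 9.98 untreated, and its Cy3 signal was 8.01, 8.11 and 8.44 after polyI:C and 9.88, 9.57 and 9.33 untreated. Repeat hybridisations of the treated and the untreated pool did not overlap for Dusp1, Dusp2, Dusp4, Dusp5, Dusp6 and Ier2. Their spread is technical, so the lack of overlap does not measure spread between wild-type samples. No share of all genes is given beside the lack of overlap, which is therefore not read as particular to these members.

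**Figure D2:**
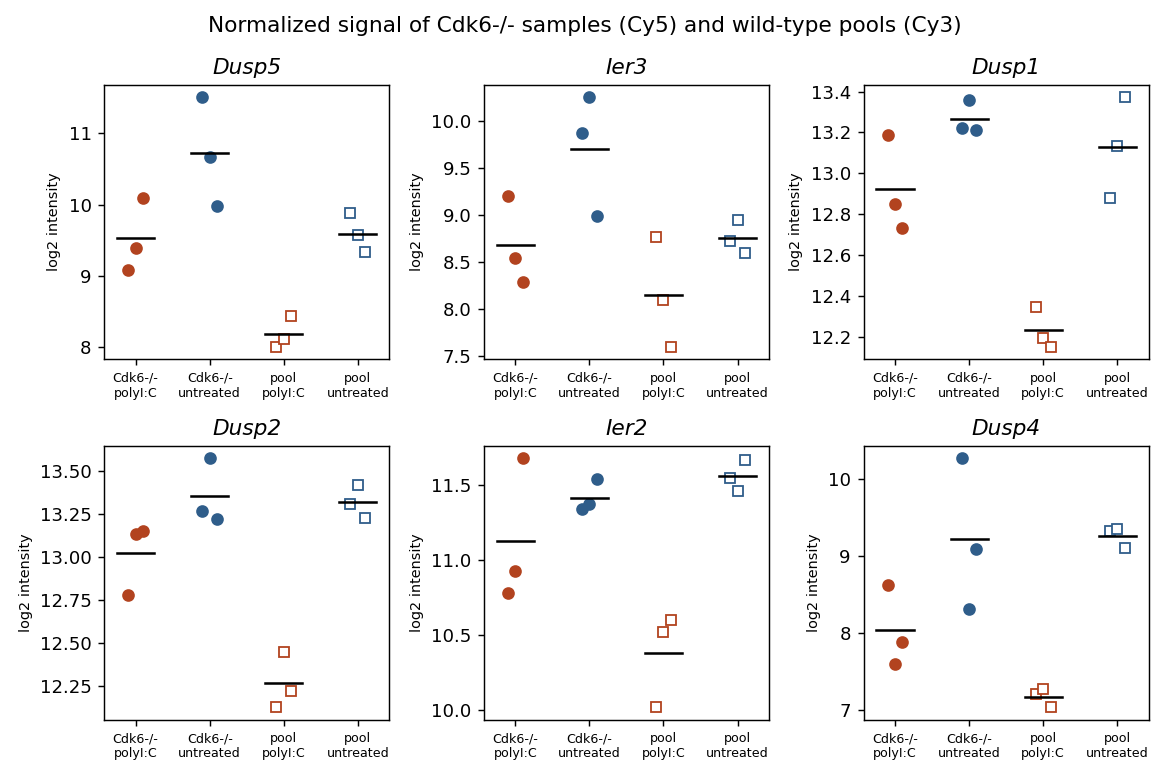
Normalized log2 intensity (vertical axis) of 6 members in Cdk6-/- samples (Cy5, filled) and wild-type pools (Cy3, open), after polyI:C and untreated. Points are single arrays, bars are means, and the 3 points of a pool are repeat hybridisations of 1 sample. The treated pool has the lowest mean for all 6 members, but for Ier3 its points overlap those of the untreated pool. The vertical scales differ between panels.

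Within Cdk6-/- samples, no member passed the test of polyI:C against untreated, beside 0.0574% of all genes called lower. At an unadjusted p under 0.05 in limma 3 members were lower, beside 4.87% of all genes. These were Dusp5 at -1.19 (SE 0.46, 95% interval -2.22 to -0.16, limma adjusted p = 0.402), Dusp4 at -1.19 (SE 0.52, interval -2.35 to -0.02, limma adjusted p = 0.475) and Ier3 at -1.03 (SE 0.42, interval -1.98 to -0.07, limma adjusted p = 0.441). The Dusp4 probe passed the brightness filter only through the untreated arrays, which favours a fall after polyI:C. With probes well above background in both channels on all arrays, 2 of 8 members were lower at that unadjusted p in limma. Dusp1 was at -0.34, Dusp2 at -0.33, Ier2 at -0.29, Dusp6 at 0.08, Ier5 at 0.26 and Spry2 at 0.72, with limma adjusted p-values of 0.697 to 0.967.

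The wild-type pools, 1 sample per state, allow no test. Their log2 difference of polyI:C minus untreated was -2.09 for Dusp4, -1.41 for Dusp5, -1.18 for Ier2, -1.05 for Dusp2, -0.90 for Dusp1, -0.65 for Dusp6, -0.61 for Ier3 and -0.37 for Ier5, and 0.41 for Spry2. The treated pool was thus lower for 8 of 9 members, beside 50.1% of all genes. It was at least 2-fold lower for 4 of 9, beside 8.08% of all genes, while Cdk6-/- samples were at least 2-fold lower for 3 of 9, beside 3.88%. The Dusp4 probe was well above background on 1 of the 3 hybridisations of the treated pool. Dusp4 is in both 2-fold counts, although it passed the brightness filter only through the untreated arrays. With median centring and with the processed signals of the deposited files, the same 8 pool differences were below 0, at medians over the 9 members of -0.61 and -0.86, against medians over all genes of 0.12 and 0.04.

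**Figure D3:**
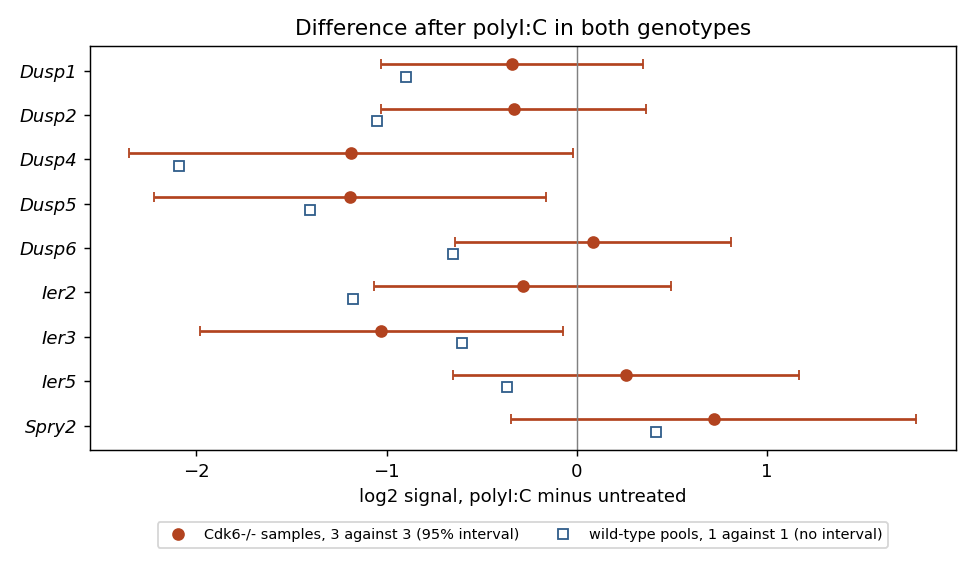
Log2 signal after polyI:C minus untreated (horizontal axis) for the 9 tested members, in Cdk6-/- samples (circles, with 95% intervals over 3 against 3 samples) and in the wild-type pools (squares, 1 sample each and no interval). The pool lies lower than the Cdk6-/- samples for every member except Ier3. The Cdk6-/- samples lie above 0 for Dusp6, Ier5 and Spry2, and the pool for Spry2 alone.

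The level of the ratios depended on the scaling. Loess removes a trend of the ratio with brightness within each array, and median centring only shifts each array. With median centring the median ratio of all genes was 0.21 after polyI:C and 0.30 untreated, and the ratios of the bright probes were much higher. Dusp1 was then at 1.30 after polyI:C (limma adjusted p = 0.00148) and 0.83 untreated (limma adjusted p = 0.0141), and Dusp2 at 1.37 (limma adjusted p = 0.000644) and 0.77 (limma adjusted p = 0.0146). Dusp6 at 1.16 and Ier2 at 1.04 passed after polyI:C but not untreated, where they were at 0.50 and 0.31. Dusp5 was at 1.47 after polyI:C and 1.51 untreated, and Ier3 at 0.66 and 1.28. In all, 5 of 9 members were called after polyI:C and 4 of 9 untreated, beside 2345 and 4876 of 22630 genes called higher.

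**Figure D4:**
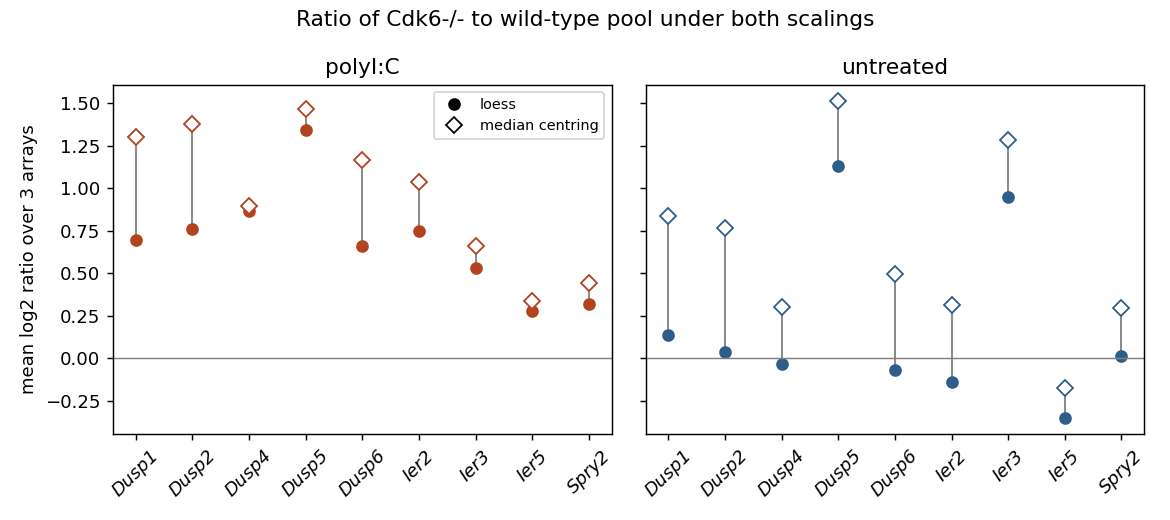
Mean log2 ratio of Cdk6-/- sample to wild-type pool over 3 arrays (vertical axis) after loess (filled circles) and after median centring (open diamonds), after polyI:C on the left and untreated on the right. The distance between the scalings is widest for Dusp1, Dusp2 and Dusp6, and Dusp5 and Ier3 are the highest of the 9 in the untreated panel under both.

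Other genes of the pathway were taken from 4 lists. Of 14 tested genes among the other dual-specificity phosphatases, Sprouty, Spred and Ier genes, 4 were higher untreated and 0 lower. Beside them, 3.05% of all genes were higher and 9.93% lower. The median was 0.33 untreated, and 0 passed after polyI:C, with a median of 0.10. The 4 were Dusp16, a JNK and p38 phosphatase, at 1.51 (SE 0.23, limma adjusted p = 0.00376), Dusp18 at 1.26 (SE 0.24, limma adjusted p = 0.00877), Spred1, an inhibitor of Ras signalling, at 1.01 (SE 0.17, limma adjusted p = 0.00542) and Spry1 at 0.65 (SE 0.18, limma adjusted p = 0.0408). Spred1 had log2 ratios of -0.0020, -0.33 and -0.45 after polyI:C and 0.95, 1.10 and 0.97 untreated. Its ratio was thus lower after polyI:C, by a difference of -1.26 (SE 0.24, limma adjusted p = 0.0312). With the mean over its probes Spred1 was at 0.52 untreated (limma adjusted p = 0.105), and its difference at -0.72 (limma adjusted p = 0.204). The call of its difference also ended without any single array (limma adjusted p = 0.0642 to 0.123), that of Spry1 without any single untreated array or polyI:C array 1 or 2 (limma adjusted p = 0.0615 to 0.140), and that of Dusp18 without untreated array 1 (1.11, limma adjusted p = 0.0575). Over 16 alternatives of processing, blocking or arrays, the untreated call held in 6 for Spry1, 15 for Dusp18 and 15 for Spred1. The call of the Spred1 difference held in 6.

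Of 27 tested genes of the MAP kinase cascade, 2 were lower untreated, beside 9.93% of all genes, and the median was -0.02. Mapk13, a p38 kinase, was at -1.11 (limma adjusted p = 0.0108) and Mapk3, which encodes ERK1, at -0.69 (limma adjusted p = 0.0317), but Mapk3 was at -0.22 with median centring (limma adjusted p = 0.459). None passed after polyI:C, where the median was -0.02. The ratio of Mapk13 was up after polyI:C by 1.67 (SE 0.31, limma adjusted p = 0.0293), against 1.42 with median centring (limma adjusted p = 0.068). Of 11 tested ERK output genes, 0 were higher after polyI:C, with a median of 0.22. Untreated, 3 were higher, beside 3.05% of all genes, with a median of 0.25. They were Etv5, an Ets factor induced by ERK, at 1.25 (SE 0.21, limma adjusted p = 0.00509), Ccnd1, a D-type cyclin, at 0.93 (limma adjusted p = 0.0285), and Spred1, which belongs to both lists. Without untreated array 1 or 3, Ccnd1 was at 0.90 and 0.64 (limma adjusted p = 0.113 and 0.165). The call of Mapk13 untreated ended without untreated array 3 (-0.90, limma adjusted p = 0.0736), that of its difference without untreated array 1 or 3 or any single polyI:C array (limma adjusted p = 0.0534 to 0.0991), and that of Mapk3 when polyI:C array 1 or 2 or else untreated array 1 or 3 was left out (limma adjusted p = 0.0503 to 0.148). Over the 16 alternatives the untreated call held in 16 for Etv5, 14 for Mapk13, 10 for Ccnd1 and 6 for Mapk3. The call of the Mapk13 difference held in 5.

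Of 19 tested immediate early genes outside the 10, mostly transcription factors, 11 were higher after polyI:C and 4 untreated, beside 0.318% and 3.05% of all genes, and 0 were lower, with medians of 1.12 and 0.48. The 11 calls were 18 with median centring, 3 with a normexp offset of 0, 4 of 20 with no filter on dim probes, 1 with processed signals and 0 with an intensity trend of the prior. They were 1 without polyI:C array 1, 1 without polyI:C array 2, 3 without polyI:C array 3, 6 without untreated array 1, 5 without untreated array 3 and 0 without both arrays low in Xist. The median after polyI:C was 0.95 to 1.47 over these alternatives. The 4 untreated calls were 13 with median centring, 2 with the intensity trend and 2 without untreated array 1. The members had medians of 0.69 and 0.01 on the same arrays. For the difference of ratios 0 of the 19 genes passed, beside 1.60% of all genes called up, and the median was 0.63. Within Cdk6-/- samples 0 of the 19 passed for polyI:C against untreated, with a median of -0.14.

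Among themselves, the 9 members' ratios over the 6 arrays had a median Pearson r of 0.42 over 36 pairs, of which 29 were above 0. The closest pair was Dusp2 and Ier2 (r = 0.96), followed by Dusp6 and Ier2 (r = 0.94), and the pair farthest apart was Ier2 and Ier3 (r = -0.46). The arrays are shared by all pairs, and these values describe 6 points. Over 10441 other genes that were bright on all arrays, the 5 whose ratio most resembled the members' mean were Paxx, Col3a1, Chac1, Hcls1 and Slc15a3, with r of 0.99 over 6 arrays for each.

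Markers of other blood cells also differed between the arrays. The 9 granulocyte markers had a median ratio of 0.86 after polyI:C and -0.79 untreated, and the 7 tested monocyte and macrophage markers of 0.70 and -0.27. The summed Cy5 signal of the granulocyte markers was 174005 to 229042 after polyI:C and 166429 to 267223 untreated, and that of the monocyte markers 11242 to 18557 and 16089 to 18998. Of these 7 monocyte markers, 4 were well above background in Cy5 on all polyI:C arrays and 6 on all untreated arrays. By array the granulocyte median was 0.54, 0.63 and 1.36 after polyI:C and -0.62, -0.21 and -1.49 untreated. It was thus highest on polyI:C array 3, as was the members' mean. The 7 B cell markers had a median ratio of -0.00 after polyI:C and -1.59 untreated, with a summed Cy5 signal of 3750 to 4927 after polyI:C and 6142 to 11007 untreated, and 2 of them were well above background on all polyI:C arrays and 7 on all untreated arrays. The 7 tested endothelial and stromal markers had medians of -0.11 and -1.28, with sums of 3591 to 4804 and 5477 to 7184. The summed signal of the T and NK cell markers was 26911 to 31640 after polyI:C and 5352 to 7045 untreated, that of the megakaryocyte markers 36690 to 45512 and 8186 to 14308, and that of the erythroid markers 19115 to 81711 and 97475 to 127905. The T and NK cell markers had a median ratio of 0.22 after polyI:C and -0.34 untreated. The megakaryocyte markers had 0.32 and -0.30. The erythroid markers had -1.16 and -0.59. By array their median was -1.47, -0.27 and -1.57 after polyI:C and -0.61, -0.47 and -0.59 untreated, so polyI:C array 2 lay above all untreated arrays. Their median difference of ratios was -0.29, and 0 of them passed for it. The part of all these cell types in the members' ratios was not tested.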

How the data were processed

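RNA was amplified as whole transcriptomes and its cDNA labelled with dyes that couple to guanine, per the labels' protocols. Per the file headers, the 6 arrays were read with Agilent Feature Extraction 11.5.1.1 on a design annotated on mm9. For each spot the deposited files give a median intensity and a median background intensity, processed signals (an intensity after background subtraction and dye normalization), flags (other, neither intensity nor ratio) and a log10 ratio of red to green, not used here. The authors' deposited value table is in log2 and differed from the log2 ratio of processed signals by at most 2.52e-06. The plan named spot signals without their kind; medians were used.

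Signals were background-corrected by normexp (offset 50) and normalized by loess within arrays in limma 3.58.1 (R 4.3.3, statmod 1.5.0), without control spots and flagged spots (0.657%). Of 55681 probes, 31802 exceeded background clearly, in at least 1 channel, on all 3 arrays of a group. The brightest probe stood for each of 22630 genes, named through RefSeq on GRCm38.p6 (22244 of 23839 accessions matched). Ratios were fitted in 1 model with a mean per group, with 4 residual degrees of freedom. Cy5 levels were fitted after quantile normalization of average intensities. Errors are standard errors of the fit unless marked SD. The Benjamini-Hochberg adjustment of limma's p-values ran over all genes, with a threshold of 0.05. The number of arrays limits the precision, and an exact permutation test of 3 against 3 arrays cannot go below 0.1. In simulated untreated ratios of 22630 genes, 90.3% of changes of 2 and 31.8% of changes of 1 log2 unit were recovered, and 3.28% of calls were false. The simulated noise was independent between arrays and genes, without dye bias, spread of wild-type cells or slide effects. These rates therefore leave out errors of those kinds in the real calls.

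The members, lists and rules were chosen with earlier results of these data known. Named were the 10 members, and genes of the fixed lists past the threshold; 1 such result is not reported here. The 5 genes most like the members were taken by Pearson r.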

Additional observations from a re-analysis of the deposited data

Results flagged for a closer look

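The ratio of Ier2 lay below 0 on every untreated array and above 0 on every polyI:C array, which drew attention to its difference of 0.89 between the states. In limma that difference had an adjusted p = 0.109, and the adjusted p was 0.0927 to 0.302 over 16 alternatives, so it did not pass in any of them. With median centring all 6 ratios of Ier2 were above 0.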

How the results depend on the processing

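Each result was recomputed under 16 alternatives. The number of members called untreated, 2, was 4 with median centring, 1 with an intensity trend of the prior, and 0 to 2 without single arrays. The number called after polyI:C, 1, was 5 with median centring and 2 with probes bright in both channels on all arrays. It was 0 with processed signals, with no filter on dim probes, with an intensity trend of the prior, with slide as a fixed block and without both arrays low in Xist, and 0 to 1 without single arrays; 5 to 7 members then had an unadjusted p under 0.05 in limma. Of 22630 genes, 0 were called higher with that trend or without both arrays low in Xist, 9 with processed signals and 43 with slide as a fixed block, so a count of 0 members there says little about them. No alternative gave a call for the difference of ratios or for polyI:C in Cdk6-/- samples, but 0 of all genes passed for the difference with slide as a fixed block or without both arrays low in Xist, and 0 for polyI:C in Cdk6-/- samples without both those arrays, without any single untreated array or without polyI:C array 1. Signs turned only where nothing was called. Untreated ratios did so with median centring (Dusp4 0.30, Dusp6 0.50, Ier2 0.31), processed signals (Dusp6 0.0041, Spry2 -0.020), slide as a fixed block (Dusp6 0.15, Ier2 0.0054), without untreated array 2 (Dusp2 -0.021, Dusp4 0.46) and without untreated array 3, alone or with polyI:C array 3 (Spry2 -0.058 in both). The difference of ratios of Dusp5 was -0.047 with median centring, -0.18 without both arrays low in Xist and -0.026 without untreated array 3. Dusp6 in Cdk6-/- samples was -0.11 with slide as a fixed block and without both arrays low in Xist, and -0.12 without polyI:C array 3. Of all 572 values for members, 536 kept direction and side of the threshold. Without single untreated arrays the untreated ratio ranged from -0.021 to 0.075 for Dusp2, -0.53 to 0.46 for Dusp4 and -0.058 to 0.069 for Spry2, and without single arrays Dusp6 in Cdk6-/- samples ranged from -0.12 to 0.20. The causes were not tested. No paired analysis was possible because the labels give no replicate numbers, as far as pairs by number go; arrays were blocked by slide only. Signal near background limits Dusp10, Dusp4 and the second Ier5 probe.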
